A study of Mus musculus with 4 samples.

Results

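The HoxD cluster, a row of 9 Hox genes on mouse chromosome 2 with the homeobox gene Evx2 at one end, was examined for Polycomb marks in forelimb buds of wild-type BDF1 embryos at E10.5. Whole buds had been pooled and fixed, and chromatin was immunoprecipitated for RING1B or for H3K27me3 (trimethylated lysine 27 of histone H3). Each precipitate was hybridised together with its input DNA, in the other dye, to 2-colour tiling arrays (ChIP-chip). The members are the 357 array probes that the array places at the HoxD cluster of chromosome 2, from 74457946 to 74566077, of 237195 probes on the array design that carries them and 474380 on the 2 designs of the set. The second design held 0 probes in this window, so every HoxD probe was read on 1 array per antibody. With no replicate array, no test between conditions was possible, and the spreads given below are over probes, which are not replicates. Pooling of whole buds means that a ratio is an average over all cell types of the bud, and the number of embryos in a pool is not stated in the labels. No RNA was measured in these arrays, so the tissue label was not checked against marker genes.

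Polycomb repressive complexes keep developmental genes silent. PRC2 sets H3K27me3, PRC1 can bind that mark through its CBX subunits, and RING1B is the E3 ligase of PRC1, which ubiquitinates histone H2A and takes part in chromatin compaction. Hox clusters are the textbook Polycomb targets of vertebrate embryos. Along HoxD the genes are switched on in order, from Hoxd1, the earliest and most anterior, to Hoxd13, the latest and most posterior. In the limb bud, Hoxd9 to Hoxd13 pattern the skeleton: Hoxd11 acts in the forearm and Hoxd12 and Hoxd13 in the digits, and early expression of these genes is restricted to posterior cells. Hoxd3 and Hoxd4 take part in the patterning of neck vertebrae, and Evx2, next to Hoxd13, is co-expressed with it in the distal limb.

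The RefSeq gene table of GRCm38.p6 orders the locus as Lnpk, Evx2, Hoxd13, Hoxd12, Hoxd11, Hoxd10, Hoxd9, Hoxd8, Hoxd3, Hoxd4, Hoxd1 and Mtx2. Hoxd3 stands before Hoxd4 by the start site listed for it. The promoter at that start (chr2:74711743-74711992) lies before that of Hoxd4 (chr2:74721728-74721977), and the Hoxd3 counts below are from it. The array coordinates belong to an older build that is not named in the sources used here. In them Evx2 and Hoxd13 lie at the low end and Hoxd1 at the high end, and the genes between were not assigned to single probes. The promoter sequences of the genes at both ends are shown because the 2 antibodies' profiles differ between these ends, and because unmethylated CG-rich DNA is the usual ground on which Polycomb complexes settle. Each is the 250 bases before the RefSeq start site in GRCm38.p6, read 5′ to 3′ on the gene's strand, with the dinucleotide CG in capitals. They are Evx2 (chr2:74659558-74659807, minus strand), Hoxd13 (chr2:74667975-74668224, plus strand) and Hoxd1 (chr2:74762730-74762979, plus strand).
Evx2: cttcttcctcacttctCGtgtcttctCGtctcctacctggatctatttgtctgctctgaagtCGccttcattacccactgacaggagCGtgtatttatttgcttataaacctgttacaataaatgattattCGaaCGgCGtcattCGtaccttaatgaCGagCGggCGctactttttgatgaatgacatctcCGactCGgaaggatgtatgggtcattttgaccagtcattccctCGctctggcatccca
Hoxd13: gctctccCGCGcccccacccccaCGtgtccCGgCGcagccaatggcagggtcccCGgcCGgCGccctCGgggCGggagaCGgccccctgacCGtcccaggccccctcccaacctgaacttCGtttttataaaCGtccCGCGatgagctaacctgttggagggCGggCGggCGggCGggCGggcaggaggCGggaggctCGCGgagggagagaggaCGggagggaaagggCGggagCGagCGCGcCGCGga
Hoxd1: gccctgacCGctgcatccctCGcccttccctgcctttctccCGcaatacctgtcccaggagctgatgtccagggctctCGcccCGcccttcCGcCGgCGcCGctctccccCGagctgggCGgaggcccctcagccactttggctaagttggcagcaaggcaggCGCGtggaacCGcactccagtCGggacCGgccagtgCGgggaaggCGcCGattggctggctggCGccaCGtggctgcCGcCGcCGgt
The Hoxd13 promoter held 31 CG in these 250 bases, Hoxd1 held 24 and Evx2 held 14, against a median of 6 (quartiles 2 and 16) over all 32851 promoters of the same length. The 11 promoters that the table lists for 10 genes of the locus (Hoxd11 has 2) ran from 2 to 31 CG, with a median of 13. Hoxd10 had 20, Hoxd9 13, Hoxd3 12, Hoxd12 10, Hoxd8 6 and Hoxd4 3, and the 2 Hoxd11 starts had 2 and 20. Hoxd13 and Hoxd1 thus had the most CG of the locus, above the upper quartile of all promoters, while Evx2 lay within the quartiles, and the fewest were at the first Hoxd11 start and at Hoxd4. GC content ran from 40.4% at Hoxd4 to 74.4% at Hoxd13, around a median of 52.4% over all promoters. The letters GCCATNTTG, the core recognised by YY1, the mammalian relative of a fly Polycomb recruiter, were found on either strand in 0 of the 11 promoters and in 1.33% of all promoters. GAGAG, the core of the fly GAGA factor motif, was in 5 of the 11 and in 54.7% of all. Neither motif holds the other, and a match is only a description of the sequence.

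The 357 probes were 45 to 60 bases long, had a median spacing of 170 bp, and spanned 108 kb. They fell into 6 tiled stretches, defined as runs with at most 1000 bp between neighbouring probe starts, which covered 67.8 kb. Stretch 1 at the Evx2 and Hoxd13 end had 144 probes over 27.7 kb, stretch 2 had 73 over 13.6 kb, stretch 3 had 59 over 12 kb, stretch 4 had 44 over 7.70 kb, stretch 5 had 6 over 1.5 kb, and stretch 6 at the Hoxd1 end had 31 over 5.28 kb. Untiled gaps of 1.76, 16.3, 10.13, 11.2 and 0.961 kb separated them in that order, so the array says nothing of 16.3 kb in the middle of the cluster.

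Each antibody had 340 HoxD probes that were well above background in both dyes and not marked as outliers, and 332 probes were usable for both. Of the 17 left out for RING1B, 15 were dim in Cy3, 4 in Cy5 and 2 of these in both. For H3K27me3, 15 were dim in Cy3 and 2 were outliers. None of the HoxD spots was marked as saturated (0 for each dye and antibody). Repeated spots of control probes varied by an SD of 0.14 (RING1B) and 0.15 (H3K27me3) on the log2 scale, while neighbouring HoxD probes differed by a root mean square of 1.08 and 0.99. Differences between single probes below about that size are therefore within the local spread.

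Values are log2 ratios of Cy5 over Cy3, centred so that the array median is 0. The labels give Cy3 to the precipitate and Cy5 to the input on every array. The sign used here is the opposite of that, as the file's own log ratio is written, and if the labels are right about the dyes every sign below turns and every high ratio becomes a low one. The dyes behaved differently over HoxD. The median Cy3 signal of the HoxD probes stood 0.07 (log2) above the array median on the RING1B array and 0.03 above it on the H3K27me3 array. The median Cy5 signal stood 3.83 and 3.91 above it. Between the arrays, Cy3 signals of the 332 shared probes correlated at r = 0.940 (0.955 over 186683 probes of the whole design) and Cy5 signals at r = 0.887 (0.710 over the design). These correlations are over probes that share their sequence and their place on the array. They describe where the HoxD signal lies, in Cy5, and do not settle which DNA that dye carried.

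Both profiles were high at most usable probes of the cluster. The untiled gaps were not read, and RING1B was lowest in stretches 3 and 5 (means of 1.39 and -0.72). RING1B averaged 3.51 ± 1.85 (SD over 340 probes), with a lowest value of -1.13, a median of 3.85 and a highest of 7.29. H3K27me3 averaged 3.68 ± 1.34 (340 probes), from 0.39 through a median of 3.87 to 6.48. With these ratios the average levels were thus close, and RING1B was the more uneven along the cluster. The closeness depended on the scaling, since with loess the means were 2.89 and 1.55, and in units of each array's SD 2.64 and 1.93. At 2-fold or more (log2 of 1) there were 304 HoxD probes (89.4%) for RING1B, against 16.9% of all kept probes of the array. For H3K27me3 it was 329 probes (96.8%), against 27.3% of the array. At 8-fold or more (log2 of 3), there were 203 RING1B probes (59.7%), against 3.6% of the array, and 240 H3K27me3 probes (70.6%), against 11.9%. With loess the H3K27me3 share of HoxD probes at 8-fold or more was 11.5%. Below the array median lay 9 HoxD probes for RING1B and 0 for H3K27me3.

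**Figure D1:**
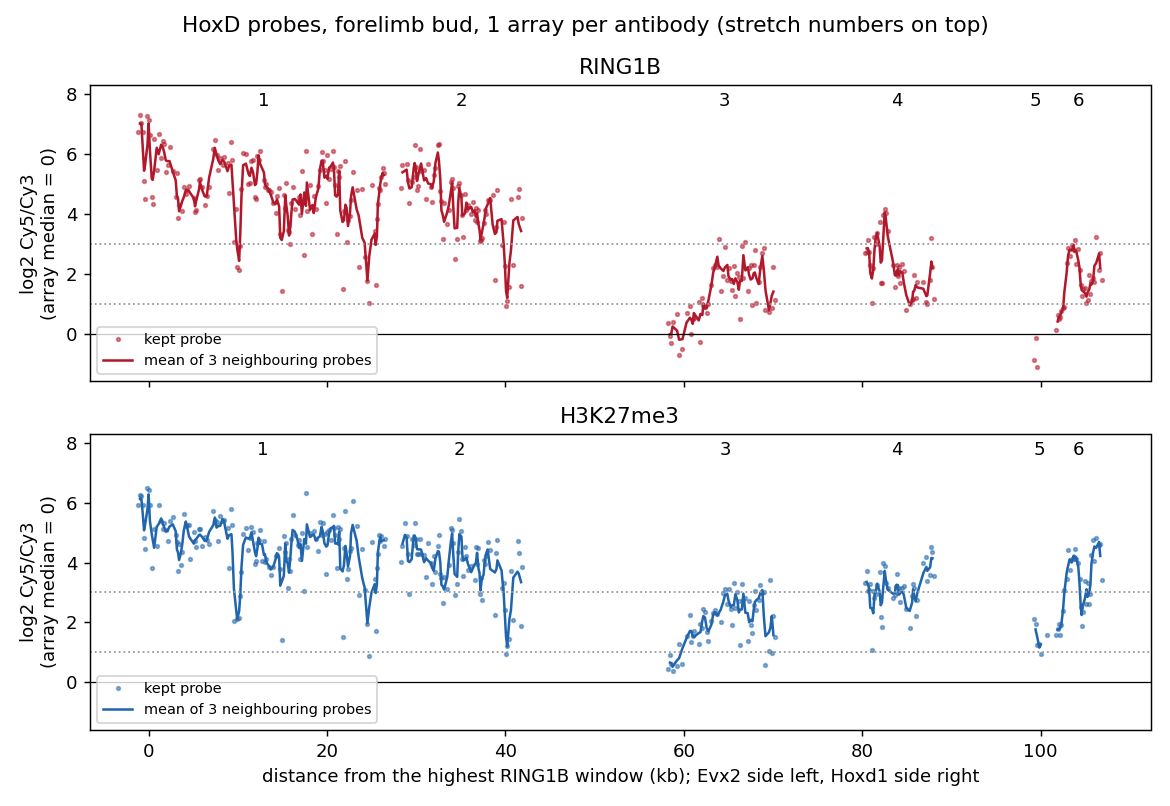
Log2 ratio (Cy5 over Cy3, array median 0) of each kept HoxD probe, as points, and of the mean of 3 neighbouring kept probes, as lines, for RING1B (upper panel) and H3K27me3 (lower panel), against distance in kb from the highest RING1B window. Dotted lines mark 2-fold and 8-fold, and numbers give the tiled stretches. Both profiles are highest at the left, Evx2 and Hoxd13 end (windows of 7.01 and 6.27), and RING1B is below H3K27me3 at the right, Hoxd1 end.

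Both antibodies had their highest window, a mean of 3 neighbouring probes, at the same place, chr2:74458972-74459303 near the Evx2-side end of stretch 1. It reached 7.01 ± 0.34 for RING1B, a Cy5 over Cy3 ratio 129-fold above the array median, and 6.27 ± 0.31 for H3K27me3, 77.4-fold above it. With the values as written, the lowest windows lay apart. For RING1B it was all 3 usable probes of stretch 5, at chr2:74558335-74558795, with -0.72 ± 0.51. For H3K27me3 it was at chr2:74517702-74518402, at the start of stretch 3, with 0.52 ± 0.11. The lowest H3K27me3 window turned to -1.08 with loess, and that of RING1B was -2.04 with no filter on dim probes. As written, the summit was thus shared, while the RING1B minimum lay near the Hoxd1 end and that of H3K27me3 just beyond the 16.3 kb gap. The place of the RING1B minimum was not stable. With normexp the lowest window was -0.12, outside stretch 5, whose mean was -0.10. Stretch 5 has too few usable RING1B probes for windows of 5. Another low RING1B window, -0.21 ± 0.74 at chr2:74518343-74519007, lay at the start of stretch 3, next to the H3K27me3 minimum.

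Stretches 1 and 2 carried the highest levels. In stretch 1 RING1B averaged 4.81 ± 1.23 (140 probes) and H3K27me3 4.58 ± 1.02 (138 probes), with 128 probes at 8-fold or more for each. In stretch 2 the averages were 4.23 ± 1.20 (71 probes) and 3.88 ± 0.98 (70 probes), with 62 and 58 probes at 8-fold or more. Beyond the gap the levels were lower. Stretch 3 averaged 1.39 ± 0.98 for RING1B (55 probes) and 2.05 ± 0.86 for H3K27me3 (55 probes), with 2 and 9 probes at 8-fold or more. For RING1B that was 3.6% of the usable probes, the same as the 3.6% over the array. For H3K27me3 it was 16.4%, near the 11.9% over the array. Stretch 4 was higher again, at 2.21 ± 0.93 (40 probes) and 3.13 ± 0.69 (40 probes), with 9 (22.5%) and 26 (65.0%). Stretch 6, nearest to Hoxd1, had 1.76 ± 0.87 for RING1B (31 probes) and 3.30 ± 1.04 for H3K27me3 (31 probes), with 2 (6.5%) and 19 (61.3%). H3K27me3 in stretches 4 and 6 therefore stood between stretch 2 and stretch 3, and the order of levels along the cluster was not a steady decline. The means of neighbouring stretches 1 and 2 lay within their SDs over probes, as did those of stretches 4 and 6, for either antibody.

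**Figure D2:**
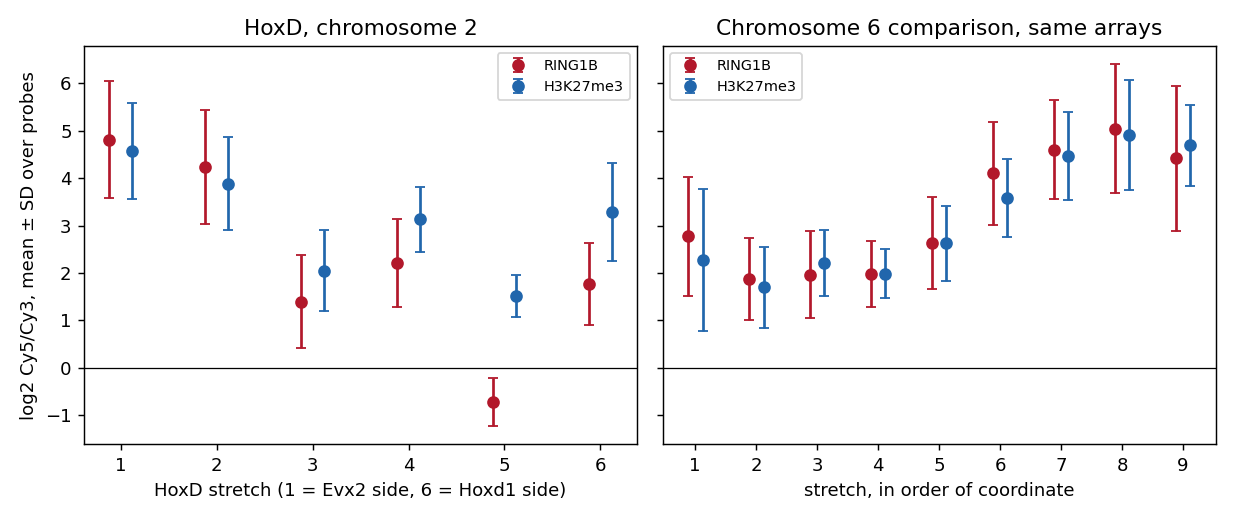
Mean log2 ratio (Cy5 over Cy3) of each tiled stretch with the SD over its probes as bars, for RING1B and H3K27me3. The left panel has the 6 HoxD stretches from the Evx2 side to the Hoxd1 side, and the right panel has 9 stretches of a chromosome 6 region on the same arrays. In HoxD, the mean of RING1B minus H3K27me3 is -0.66 to -2.49 in stretches 3 to 6 (turning sign with loess in stretches 3 and 4, and in SD units in stretch 4), while on chromosome 6 it runs from -0.31 to 0.52.

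Grouped into the 2 sides of the gap, RING1B averaged 4.62 ± 1.25 (211 probes) on the Evx2 side and 1.68 ± 1.05 (129 probes) on the Hoxd1 side, lower by 2.94 on the log2 scale, or 7.65-fold. H3K27me3 averaged 4.34 ± 1.05 (208 probes) and 2.64 ± 1.04 (132 probes), lower by 1.70, or 3.24-fold, a step that was only 0.70 with loess. The step in RING1B thus exceeded that in H3K27me3 by 1.24. It was also the larger step, by 1.02 to 1.84, with normexp background correction, loess and other filters on dim or outlying spots. In units of each array's SD it was larger by 1.32. Centring on the mode cannot change a step within an array, and the deposited value table holds nearly the same ratios, so neither could alter this. With the dyes as labelled the sign turned. Of the Evx2-side probes, 90.0% for RING1B and 89.4% for H3K27me3 were at 8-fold or more. On the Hoxd1 side it was 13 of 129 probes for RING1B and 54 of 132 (40.9%) for H3K27me3.

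At single probes the same contrast was seen. Over the 332 probes usable for both antibodies, RING1B minus H3K27me3 averaged -0.21 ± 0.91. This small value had no stable sign: it was 0.044 with centring on the mode, 1.36 with loess and 0.69 in SD units. On the Evx2 side RING1B was higher at 134 of 204 probes, by 0.28 ± 0.57 on average, which turned to -0.092 with normexp. On the Hoxd1 side RING1B was lower at 115 of 128 probes, with an average difference of -0.998 ± 0.79, which turned to 0.22 with loess. In every scaling tried with the dyes as written, what held was the order of the 2 sides, with the higher RING1B relative to H3K27me3 on the Evx2 side, not the sign on either side.

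**Figure D3:**
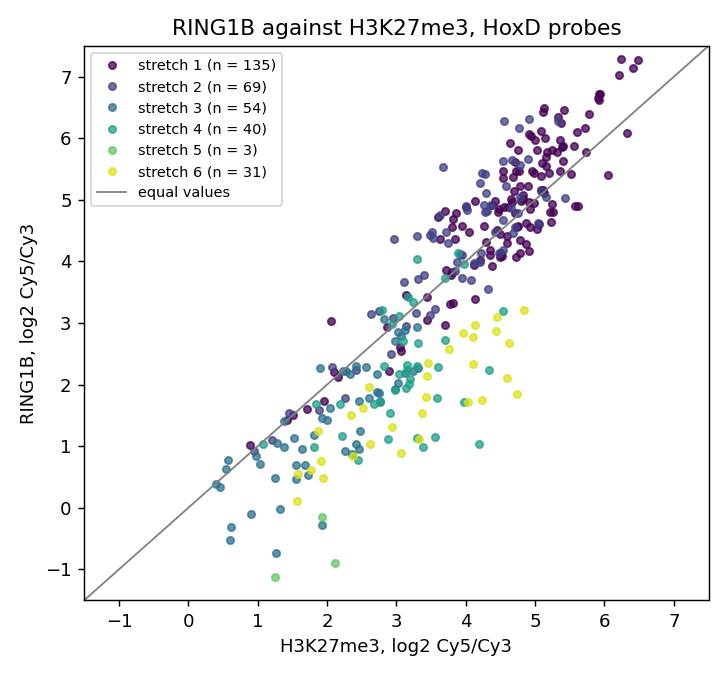
RING1B against H3K27me3, both as log2 Cy5 over Cy3, for each HoxD probe kept for both antibodies, coloured by tiled stretch, with a line of equal values. Probes of stretches 1 and 2 lie around and above the line (134 of 204 above, with the mean difference turning to -0.092 with normexp), and probes of stretches 3 to 6 lie mostly below it (115 of 128, with the mean difference turning to 0.22 with loess).

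By stretch, the difference (RING1B minus H3K27me3) was 0.24 ± 0.54 in stretch 1 (88 of 135 probes higher for RING1B) and 0.37 ± 0.60 in stretch 2 (46 of 69), both turning sign with normexp (-0.12 and -0.031). It was -0.66 ± 0.56 in stretch 3 (5 of 54 higher for RING1B) and -0.93 ± 0.89 in stretch 4 (8 of 40), which turned to 0.24 and 0.53 with loess and, in stretch 4, to 0.021 in SD units. In stretch 6 RING1B was lower at all 31 probes, with an average difference of -1.53 ± 0.56, and it stayed lower in the settings tried with the dyes as written, though with loess the difference was only -0.05. As written, RING1B relative to H3K27me3 was therefore lower in stretch 4 than in stretch 3 and lower again in stretch 6, an order of stretches 3 and 4 that turned with loess and in SD units (-0.035 in stretch 3 against 0.021 in stretch 4).

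Stretch 5 stood out and rests on very few probes. Of its 6 probes, 3 were usable for RING1B, at -0.89, -0.15 and -1.13, all below the array median. The other 3 were not well above background in Cy5 and read -2.05, -3.24 and -0.65, and with no filter on dim probes the RING1B mean of this stretch was -1.25 in place of -0.72. All 6 were usable for H3K27me3, at 2.11, 1.93, 1.26, 1.27, 0.95 and 1.58. In the mean of this stretch H3K27me3 was thus above the array median and RING1B below it. The other 6 usable RING1B probes below the median lay in stretch 3, whose lowest RING1B window, chr2:74518343-74519007, read -0.21 ± 0.74. Less than 1 kb (0.961 kb) further on, the first 5 probes of stretch 6 read 0.51 ± 0.25 for RING1B and 1.76 ± 0.18 for H3K27me3.

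The bins of 5 kb showed where the antibodies parted most. RING1B was the higher in 8 of the 10 bins on the Evx2 side and in 0 of the 9 others, by the values as written. The largest excess of RING1B was 0.77 ± 0.39 (18 probes) in the bin starting at 74485000, then 0.74 ± 0.35 (11 probes) at 74455000, which holds the summit, and 0.51 ± 0.66 (27 probes) at 74490000. The largest excess of H3K27me3 was in the bins at 74555000 (-2.49 ± 0.47, 3 probes), 74565000 (-2.0 ± 0.39, 5 probes) and 74545000 (-1.95 ± 0.71, 9 probes). The last of these is the end of stretch 4. Its last 5 probes had H3K27me3 at 3.88 ± 0.52 and RING1B at 1.87 ± 0.89, while earlier in the same stretch the highest RING1B window reached 4.05 ± 0.09. RING1B and H3K27me3 peaked at opposite parts of stretch 4, at chr2:74541483-74541800 and chr2:74546710-74547033, and over its 40 probes they correlated at only r = 0.426.

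**Figure D4:**
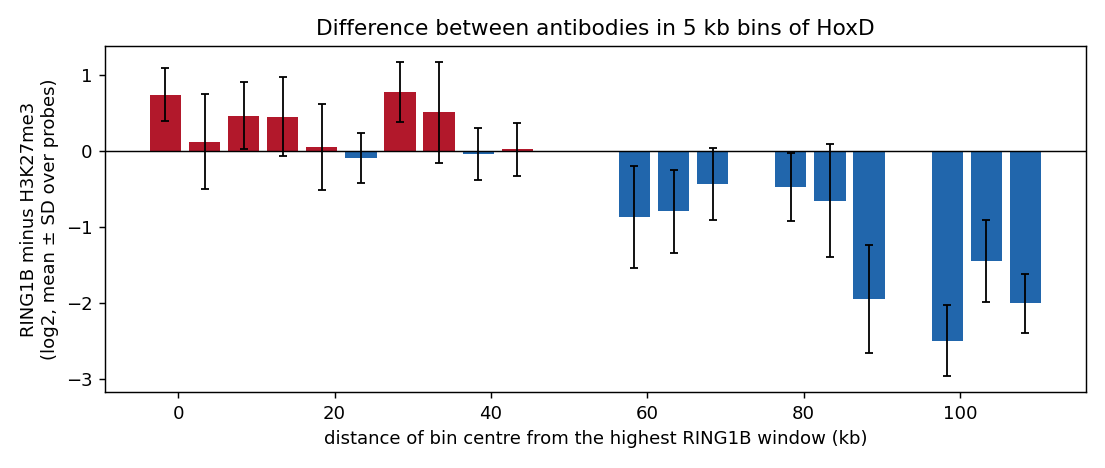
RING1B minus H3K27me3 (log2, mean with the SD over probes as bars) in 5 kb bins of HoxD, against distance in kb of the bin centre from the highest RING1B window. Red bars are bins with the higher RING1B and blue bars those with the higher H3K27me3. Of the 10 bins left of the gap 8 are positive (the mean there turns to -0.092 with normexp), and the 9 bins right of it are negative (their mean turns to 0.22 with loess).

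In stretch 6 the antibodies moved together at different heights, with r = 0.844 over 31 probes. RING1B ran from a lowest window of 0.40 ± 0.27 at the inner edge to a highest of 2.95 ± 0.17 at chr2:74562584-74562961. H3K27me3 went from 1.76 ± 0.19 at the same inner edge to 4.69 ± 0.13 at chr2:74565325-74565846. At the outer end the last 5 probes held H3K27me3 at 4.30 ± 0.57 and RING1B at 2.30 ± 0.63. These 5 probes were above the H3K27me3 average of the whole stretch (3.30) and above its RING1B average (1.76).

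Over all 332 shared probes the antibodies correlated at r = 0.891 (Spearman 0.894). The value was 0.902 within stretch 1 (135 probes), 0.873 within stretch 2 (69) and 0.812 within stretch 3 (54). These points share probes, input DNA and neighbourhood, and the values are descriptions only.

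On the Evx2 side most windows at 8-fold or more lay in a few long runs, 6 for each antibody. For RING1B the longest run of windows at that level was 14.4 kb, chr2:74469252-74483680, and for H3K27me3 it was 14.3 kb, chr2:74469376-74483680. Both also had runs of 11.1 kb (chr2:74457946-74469076) and 11.5 kb (chr2:74487432-74498957) with the same ends. These lengths depended on the processing: with normexp the longest run was 6.41 kb for RING1B and 6.87 kb for H3K27me3, and with loess that of H3K27me3 was 0.756 kb. On the Hoxd1 side RING1B had 2 such runs, both in stretch 4 and at most 1.26 kb long. H3K27me3 had 11 there, with 1 in stretch 3, 7 in stretch 4 and 3 in stretch 6, at most 1.88 kb long. At this cut, high H3K27me3 on this side was thus broken into short segments, and 2 of the 11 overlapped a RING1B run. The breaks depended on the cut, since mean H3K27me3 in stretches 4 and 6 (3.13 and 3.30) lay close to 8-fold. In stretch 4 even the lowest H3K27me3 window, 2.30 ± 1.07, was above 4-fold, while in stretch 6 the lowest was 1.76 ± 0.19.

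The runs on the Evx2 side were interrupted at the same places for both antibodies. The RING1B windows below 8-fold formed 3 dips, which were chosen on RING1B, so only the H3K27me3 values there are independent of the choice, and these share the probes. The first, of 755 bp (chr2:74468666-74469420), had a lowest window of 2.43 ± 0.44 for RING1B and 2.37 ± 0.43 for H3K27me3, against 5.58 ± 0.53 and 4.92 ± 0.61 over 13 probes within 1.5 kb on either side. The second, of 1423 bp (chr2:74483321-74484743), had 1.77 ± 0.77 and 1.97 ± 1.09, against 4.68 ± 0.92 and 4.68 ± 0.79 over 10 flanking probes. The third, of 1373 bp (chr2:74498664-74500036, in stretch 2), had 1.19 ± 0.32 and 1.20 ± 0.25, against 3.68 ± 1.30 and 3.81 ± 1.12 over 8. At the floor of each dip the antibodies differed by at most the SD over its 3 probes, and the window means of all 3 floors stayed above 2-fold. All 3 probes of each floor were 45 bases long, the shortest length in the cluster. The 60-base probes within the dips, at 74484085, 74499718 and 74498664, read 4.97, 4.48 and 2.95 for RING1B and 4.67, 3.71 and 3.14 for H3K27me3. Elsewhere in stretch 1, 45-base probes ranged widely, from 1.43 and 1.42 at 74474029 to 7.03 and 6.21 at 74458291. The lowest 60-base probe of stretch 1 usable for RING1B read 4.14, at 74477851. The low RING1B values of this stretch thus lay at shorter probes. Any part of probe length in the dips was not tested.

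At each dip Cy5 was lower than at its flanks on both arrays. In the first, mean Cy5 differed from its flanks by -2.55 (RING1B array) and -2.29 (H3K27me3 array), and mean Cy3 by 0.61 and 0.26. In the second, Cy5 differed by -1.52 and -2.02, and Cy3 by 1.38 and 0.69. In the third, Cy5 differed by -2.40 and -2.64 and Cy3 by 0.09 and -0.02. A raised Cy3 signal therefore made up part of the first dip, nearly as much as Cy5 of the second on the RING1B array, and almost none of the third. Its part in the lower ratios was not tested beyond these values, and genes or elements at the dips were not assigned.

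**Figure D5:**
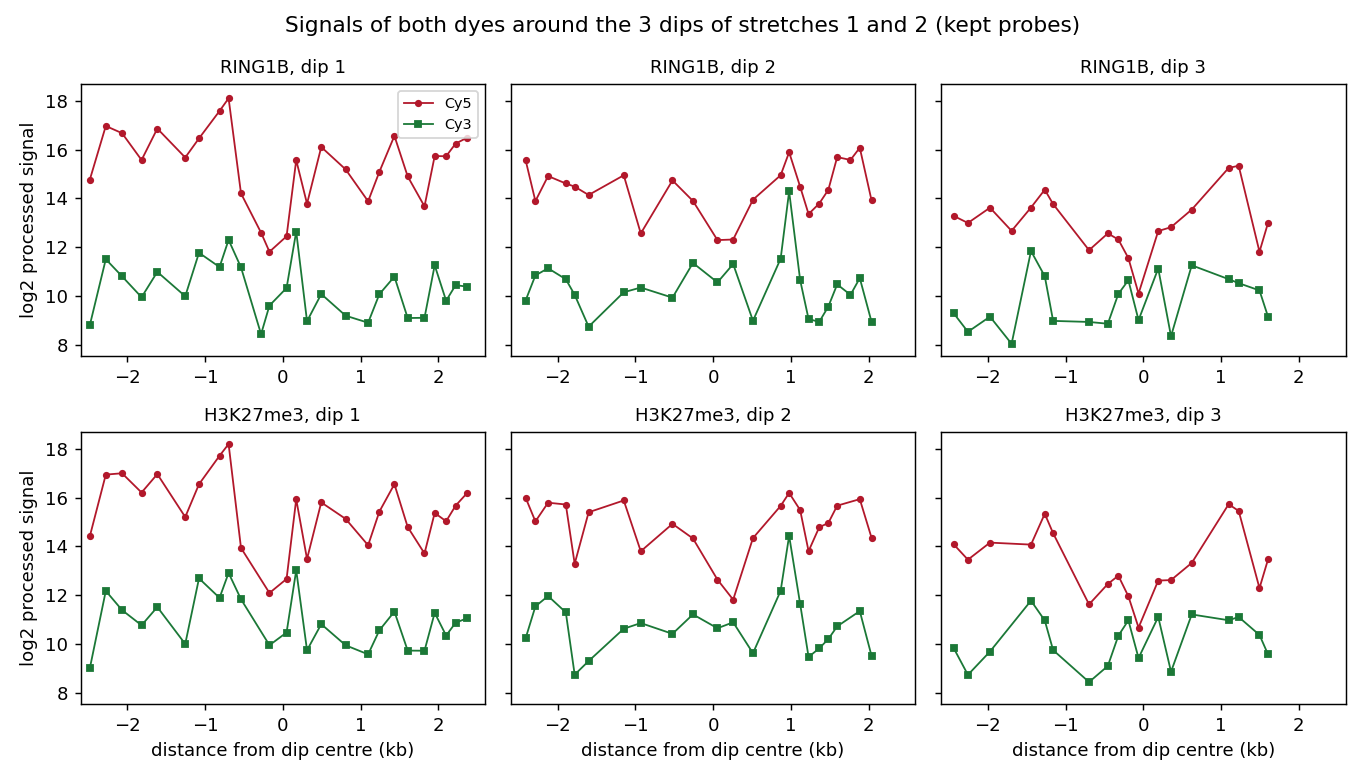
Log2 processed signal of Cy5 (circles) and Cy3 (squares) of kept probes against distance in kb from the centre of each of the 3 dips, for the RING1B array (upper row) and the H3K27me3 array (lower row). Cy5 is lower at the centre of each dip on both arrays, with differences from the flanks of -1.52 to -2.64, while those of Cy3 run from -0.02 to 1.38. All 3 probes at the floor of each dip are 45 bases long.

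High ratios were not seen in the nearest tiled stretches outside the cluster. The nearest tiled stretch beyond Evx2, chr2:74377386-74385315, 72.6 kb away, read -0.01 ± 1.02 for RING1B (29 probes) and -0.02 ± 1.02 for H3K27me3 (30 probes). Beyond Hoxd1, chr2:74621440-74625187, 55.4 kb away, read -0.95 ± 0.70 for RING1B (17 probes) and 0.11 ± 0.39 for H3K27me3 (19 probes), and the next one, chr2:74626252-74628308, read 0.03 ± 0.91 (12 probes) and -0.73 ± 1.09 (10 probes). On the Evx2 side the flanking level thus lay at the array median for both antibodies. At 74621440 RING1B was about as far below it as in stretch 5 and was lower than H3K27me3 at all 17 shared probes (-1.07 ± 0.78), while at 74626252 it was the higher at 9 of 10. Neighbours such as Lnpk and Mtx2 were not assigned to them, and the untiled ground between could not be read.

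Set among the 10106 tiled stretches of the same array with at least 3 usable probes for each antibody, 17 had a higher RING1B mean than stretch 1, while 89 had a higher H3K27me3 mean. For stretch 2 it was 54 and 267 higher, for stretch 3 451 and 1219, for stretch 4 219 and 581, and for stretch 6 319 and 516. With the ratios as written, HoxD thus ranked higher by RING1B than by H3K27me3 in all 5 of these, including the Hoxd1-side stretches in which RING1B had the lower ratio. Stretch 5 was the exception, with a RING1B mean above only 14.7% of stretches and an H3K27me3 mean above 84.4%.

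The same was seen against stretches with a like H3K27me3 mean, within 0.25 of that of the HoxD stretch. The 102 such stretches for stretch 1 had a median RING1B mean of 3.23 (quartiles 2.24 and 4.25), and 99 of them were below its 4.81. For stretch 2 the median was 1.54 and 171 of 174 were below its 4.23. For stretch 3 it was 0.43, with 292 of 314 below its 1.39, for stretch 4 it was 0.88, with 224 of 241 below its 2.21, and for stretch 6 it was 1.04, with 186 of 229 below its 1.76. For stretch 5 only 17 of 387 were below its -0.72. In these ranks the excess of RING1B for the level of H3K27me3 was largest in stretches 1 and 2, smaller towards Hoxd1, and reversed in stretch 5. Genes are not named for the other stretches, and no test of these ranks was made.

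A second high domain of the same arrays, chr6:52085480-52245478, was used for comparison. It holds 474 probes in 9 stretches, on the chromosome that carries HoxA, but its genes are not named in the files and it was chosen for its place and high ratios. Its averages were 3.37 ± 1.56 for RING1B (459 probes) and 3.19 ± 1.49 for H3K27me3 (452 probes), close to those of HoxD. The choice for high ratios favoured that closeness, so it is not a result. RING1B minus H3K27me3 averaged 0.19 ± 0.74 over 449 probes there and ran from -0.31 to 0.52 over the 9 stretches. In the 5 of them with mean H3K27me3 below 3 the difference was -0.25 to 0.48. In HoxD it was -0.66 in stretch 3 and -2.49 in stretch 5, whose mean H3K27me3 was also below 3. Over all probes, the difference in HoxD stretches 3 to 6 lay -1.19 from that of the chromosome 6 region. It was -0.95 with normexp, -1.27 with loess and -1.02 in SD units, so the relation of HoxD's Hoxd1 side to this region kept its direction where the plain difference did not, and it turned only with the dyes as labelled. With 1 array per antibody it could not be tested.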

How the data were processed

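Forelimb bud ChIP-chip arrays for RING1B and H3K27me3 were read from the authors' scanner files. Per the file headers, the authors extracted spots with Agilent Feature Extraction 10.1.1.1, and the processed signals of both dyes are intensity values on a linear scale, background-subtracted, spatially detrended and normalised between dyes by a linear method. Raw median intensity values are deposited beside them and were used for the normexp alternative. The loess alternative started from the processed signals. Per the file headers, the log ratios are log10 of Cy5 over Cy3. The deposited value tables hold log2 ratios, of which 99.7% (H3K27me3) and 99.8% (RING1B) lay within 0.001 of the scanner ratios, with medians of -0.16 and -0.11. They are therefore uncentred and run as Cy5 over Cy3, against the dyes in the labels. Amplification took 2 rounds, per the labels' protocols, which can alter relative amounts.

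Here log2 ratios of processed intensity were centred on the median of kept probes of each array (203761 for RING1B, 202876 for H3K27me3), with no loess. Control spots, dim probes and outliers were left out. Tiled stretches, 3-probe windows, 5 kb bins and runs were computed in Python 3.11.15 (pandas 2.3.3), and alternatives in limma 3.58.1. The window functions were tested on simulated data. The named regions follow a rule covering all stretches, the highest and lowest windows and the 3 bins or stretches with the largest differences each way. Members and lists were chosen with earlier results of these data known. The titles' numbers 1 and 2 are 2 array designs without shared loci, not replicates. The number of arrays limits the precision. HoxB, HoxC and the neighbours Lnpk and Mtx2 were not analysed here, since no gene positions in the array's coordinate build were at hand for them.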

Additional observations from a re-analysis of the deposited data

How the results depend on the processing

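Of 343 alternative values of 43 results, 252 stayed within a set limit, 67 moved further and 24 changed sign. Part of these counts was fixed beforehand, so they do not measure how firm the results are. Cy3 over Cy5 only turns the ratio over and gave 13 of the 24. The value table repeats nearly the same ratios and gave 42 of the 252. The limit was the SD over probes for means and differences, and a factor of 1.5 for correlations, percentiles, run lengths and stretch counts. For shares it was a binomial (Wilson) interval, which treats probes as independent. The SDs are wide, so a RING1B mean of 2.53 with normexp, against 3.51, counted as within the limit. The value table and keeping outlier spots (chosen after seeing the data) moved none. With normexp, 2-fold shares became 76.2% for RING1B, 8-fold shares 42.1% and 50.6% (H3K27me3), highest windows 6.38 and 5.54, lowest -0.12 and 0.33, longest runs 6.41 and 6.87 kb, and the difference on the Evx2 side -0.092 (stretch 1 -0.12, stretch 2 -0.031). With loess, 2-fold shares became 84.7% and 70.0%, 8-fold shares 52.9% and 11.5%, highest windows 6.17 and 3.45, and for H3K27me3 the mean 1.55, the lowest window -1.08 and the longest run 0.756 kb. The loess differences were 1.36 over all probes, 2.07 on the Evx2 side, 0.22 on the Hoxd1 side, 0.24 in stretch 3 and 0.53 in stretch 4, with r = 0.584. The cause was not tested. With no filter on dim probes, or 1 channel above background, the lowest windows were -2.04 or -2.07 for RING1B and 0.72 or 0.67 for H3K27me3, and the H3K27me3 2-fold share 98.3% in both. Centring on the mode, 0.28 above the median for H3K27me3, gave it an 8-fold share of 63.8% and a lowest window of 0.24, and a difference of 0.044 over all probes. In SD units differences were 0.69 over all probes, 1.21 and -0.14 on the 2 sides and 0.021 in stretch 4.

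With Cy3 over Cy5, means became -3.51 and -3.68, 2-fold shares 0.294% and 0%, 8-fold shares 0% for both, highest windows 0.72 and -0.52, lowest -7.01 and -6.27, HoxD minus chromosome 6 -0.14 and -0.49, differences 0.21, -0.28 and 1.00 (all, Evx2 side, Hoxd1 side) and 1.19 against chromosome 6, and steps between sides -2.94 and -1.70, or -1.24 between antibodies. Thresholds of 1.5-fold and 3-fold gave 95.0% and 81.8% for RING1B and 98.8% and 90.9% for H3K27me3. Windows of 5 probes gave 6.57 and 5.83 at the highest and -0.11 at the RING1B lowest. At 4-fold the longest run was 25.7 kb for both. A gap of 500 bp gave 10 stretches. No paired analysis was possible because the numbers 1 and 2 in the titles are array designs that share no locus, and for the same reason no replicate could be left out. Stretch 5 rests on 3 RING1B probes.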

Other observations

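The ratios of probes left out as dim differed along the cluster. The 4 RING1B probes of stretch 1 left out had ratios of 3.97 to 6.34, the 2 of stretch 2 had 5.96 and 6.29, and the 4 of stretch 3 had 2.12 to 3.10. The 4 of stretch 4 had -0.14 to 1.61, below its average of 2.21, and the 3 of stretch 5 had -3.24 to -0.65.

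The nearest further tiled stretch on the Evx2 side, chr2:73716900-73717506, 740 kb from the cluster, was above the array median for both antibodies, at 1.53 ± 0.49 for RING1B and 2.21 ± 0.70 for H3K27me3 over 3 probes. It lies beyond a tiled stretch at the median and no gene was assigned to it.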
